A study of Mus musculus with 9 samples.

Results

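The LIM homeodomain genes compared here are *Lmx1a* and 9 relatives, *Lmx1b*, *Isl1*, *Isl2*, *Lhx1*, *Lhx2*, *Lhx3*, *Lhx4*, *Lhx5* and *Lhx9*. They were taken as every array probe annotated with one of these symbols, which gave 13 of the 25697 probes and 10 of the 18120 gene symbols on the array. *Lmx1a* was chosen by its high otic vesicle signal on these same arrays, so its values are given as a description without a test. The question was whether its relatives shared its tissue pattern. The array also carries *Lhx6* and *Lhx8*, which are not in the list of relatives and are described at the end of the family.

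LIM homeodomain proteins are transcription factors with a pair of LIM domains, which bind other proteins, and a homeodomain, which binds DNA. They act together with LIM domain-binding cofactors, and LIM-only proteins compete for those cofactors. The genes form paralog pairs and are known for combinatorial use in specifying neurons, limb, pituitary and eye, and *Lmx1a* is needed for normal inner ear and roof plate development.

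RNA came from E10.5 embryos of the CD-1 strain, dissected into OV (pooled otic vesicles), periotic tissue (mesenchyme with hindbrain and dorsal neural tissue next to the vesicle) and embryo-minus-otic tissue (the whole embryo without the otic regions). No group carried a mutation or a treatment. Each group was measured on 3 one-colour Illumina MouseRef-8 arrays, 9 in all. The methods describe separate litters, but the labels do not tie a replicate number to a litter, so p-values measure the spread between these pools. Because all samples are bulk tissue, fewer cells of a type and less RNA per cell cannot be told apart.

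Values are log2 of the deposited intensity after quantile normalization. The detection p ranks a probe's signal against negative control beads, and a value under 0.01 counted as above background. Between 11283 and 12160 probes passed on each array. Differences were tested with limma, and *q* is the two-sided p adjusted by Benjamini-Hochberg over all 25697 probes, with a call at *q* under 0.05. Where a probe was above background on no array of a group, the fold Δ is given as a lower bound, from the mean of the brighter group and the lowest above-background signal of each array of the dimmer one. With several probes for a gene, probe 1 is the brightest. Levels of different probes are not compared, since probes differ in brightness.

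The dissection was checked on markers. Of 11 otic vesicle genes on the array, 9 were above background on all OV arrays, and *Hmx2* and *Hmx3* were above it on none. The list holds *Oc90*, *Fbxo2* and *Gata3*, which the study ranked high for OV on these same arrays. Their OV signal is therefore no independent check. Of the 16 probes of this list, 9 were higher in OV than in embryo-minus-otic tissue, 10 were higher than in periotic tissue. Marker counts here and below are to be read beside the shares of all probes called. In OV 5.89% were higher and 5.51% lower than in embryo-minus-otic tissue, and 5.07% and 5.15% than in periotic tissue. In periotic against embryo-minus-otic tissue the shares were 2.86% and 2.95%. The head mesenchyme list, with 9 probes, had 7 probes lower in OV than in embryo-minus-otic tissue. Also 7 were lower in periotic than in embryo-minus-otic tissue, although periotic tissue was described as mesenchyme and hindbrain. Between OV and periotic tissue, 2 of these probes were lower in OV and 0 were higher. The neural tube progenitor list averaged 6.80, 6.77 and 6.79 on the OV arrays, 8.51, 8.74 and 8.52 on the periotic arrays and 7.74, 7.73 and 7.50 on the embryo-minus-otic arrays.

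*Lmx1a* had 3 probes detected on all OV arrays, and the probe of its paralog *Lmx1b* was detected on none. *Lhx4* had the most negative fitted difference of OV from periotic tissue among the members. For these genes the 250 bases upstream of the start site are shown. They were taken from RefSeq on GRCm38.p6 and are written 5′ to 3′ in the direction of the gene. The windows are chr1:167689308-167689557 on the plus strand for *Lmx1a*, chr2:33641099-33641348 on the minus strand for *Lmx1b* and chr1:155742028-155742277 on the minus strand for *Lhx4*. Capitals mark GGGCGG, the GC box letters, searched on both strands.
Lmx1a: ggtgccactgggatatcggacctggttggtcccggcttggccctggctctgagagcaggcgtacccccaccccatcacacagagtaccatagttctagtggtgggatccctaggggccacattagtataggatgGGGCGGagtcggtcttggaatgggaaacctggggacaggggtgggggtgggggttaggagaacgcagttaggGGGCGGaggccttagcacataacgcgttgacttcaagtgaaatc
Lmx1b: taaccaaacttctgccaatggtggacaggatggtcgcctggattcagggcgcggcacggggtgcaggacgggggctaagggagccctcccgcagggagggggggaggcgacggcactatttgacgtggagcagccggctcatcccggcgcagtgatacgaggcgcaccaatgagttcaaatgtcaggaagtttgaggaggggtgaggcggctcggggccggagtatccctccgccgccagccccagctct
Lhx4: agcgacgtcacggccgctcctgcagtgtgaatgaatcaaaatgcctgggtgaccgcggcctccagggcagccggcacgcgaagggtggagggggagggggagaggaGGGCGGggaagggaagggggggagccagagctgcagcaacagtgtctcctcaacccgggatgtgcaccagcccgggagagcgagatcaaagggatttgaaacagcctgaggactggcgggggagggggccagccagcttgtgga
The *Lmx1a* window held 2 such matches, the *Lhx4* window 1 and the *Lmx1b* window 0. RefSeq gave 11 windows for 9 of the member genes, and 6 of these held GGGCGG, against 32.7% of all 32851 windows. The homeodomain core TAATTA was in 0 of the 11 windows and in 4.84% of all windows, and the TATA letters TATAAA were in 1 and in 12.4%. The GC content of the 11 windows ran from 53.6% to 72.8%, and the median of all windows was 52.4%. The part of GC content in these motif counts was not tested. The searched motifs do not overlap one another, and a match is only a match of letters.

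*Lmx1a* was bright in OV and dim in both other tissues. Probe 1 measured 10.14, 10.16 and 10.25 on the OV arrays, 6.62, 6.82 and 6.73 on the periotic arrays and 6.19, 6.31 and 6.18 on the embryo-minus-otic arrays. All OV arrays lay above all other arrays, and the periotic arrays lay above the embryo-minus-otic arrays. The probe passed the detection threshold on all 3 OV arrays, all 3 periotic arrays and 1 embryo-minus-otic array. The OV mean was 10.18 ± 0.060 (SD, n = 3), which was 3.96 log2 units over embryo-minus-otic tissue and 3.46 over periotic tissue. The periotic mean was 0.50 log2 units over embryo-minus-otic tissue.

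The other two *Lmx1a* probes also had every OV array above every other array. Probe 2 measured 6.36, 6.54 and 6.41 in OV, between 5.69 and 5.84 in periotic tissue and between 5.73 and 5.81 in embryo-minus-otic tissue. Probe 3 measured 6.33, 6.32 and 6.38 in OV, between 5.68 and 5.86 in periotic tissue and between 5.60 and 5.90 in embryo-minus-otic tissue. Both passed the detection threshold on every OV array and on no other, so only bounds can be given. OV was at least 1.17-fold over embryo-minus-otic tissue and at least 1.19-fold over periotic tissue for probe 2, and at least 1.09-fold and at least 1.12-fold for probe 3. The periotic signal of probe 1 was not seen with probes 2 and 3.

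The roof plate list, whose tissue also uses *Lmx1a*, ran the other way from probe 1 between OV and periotic tissue. Its 7 probes averaged 6.85, 7.04 and 6.75 on the OV arrays, 8.20, 8.14 and 8.18 on the periotic arrays and 7.61, 7.75 and 7.58 on the embryo-minus-otic arrays. Of these probes 6 were lower in OV than in periotic tissue, and 4 were higher in periotic than in embryo-minus-otic tissue. *Gdf7*, a defining roof plate signal, was above background on no array. The part of this tissue in the periotic *Lmx1a* value was not tested.

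**Figure D1:**
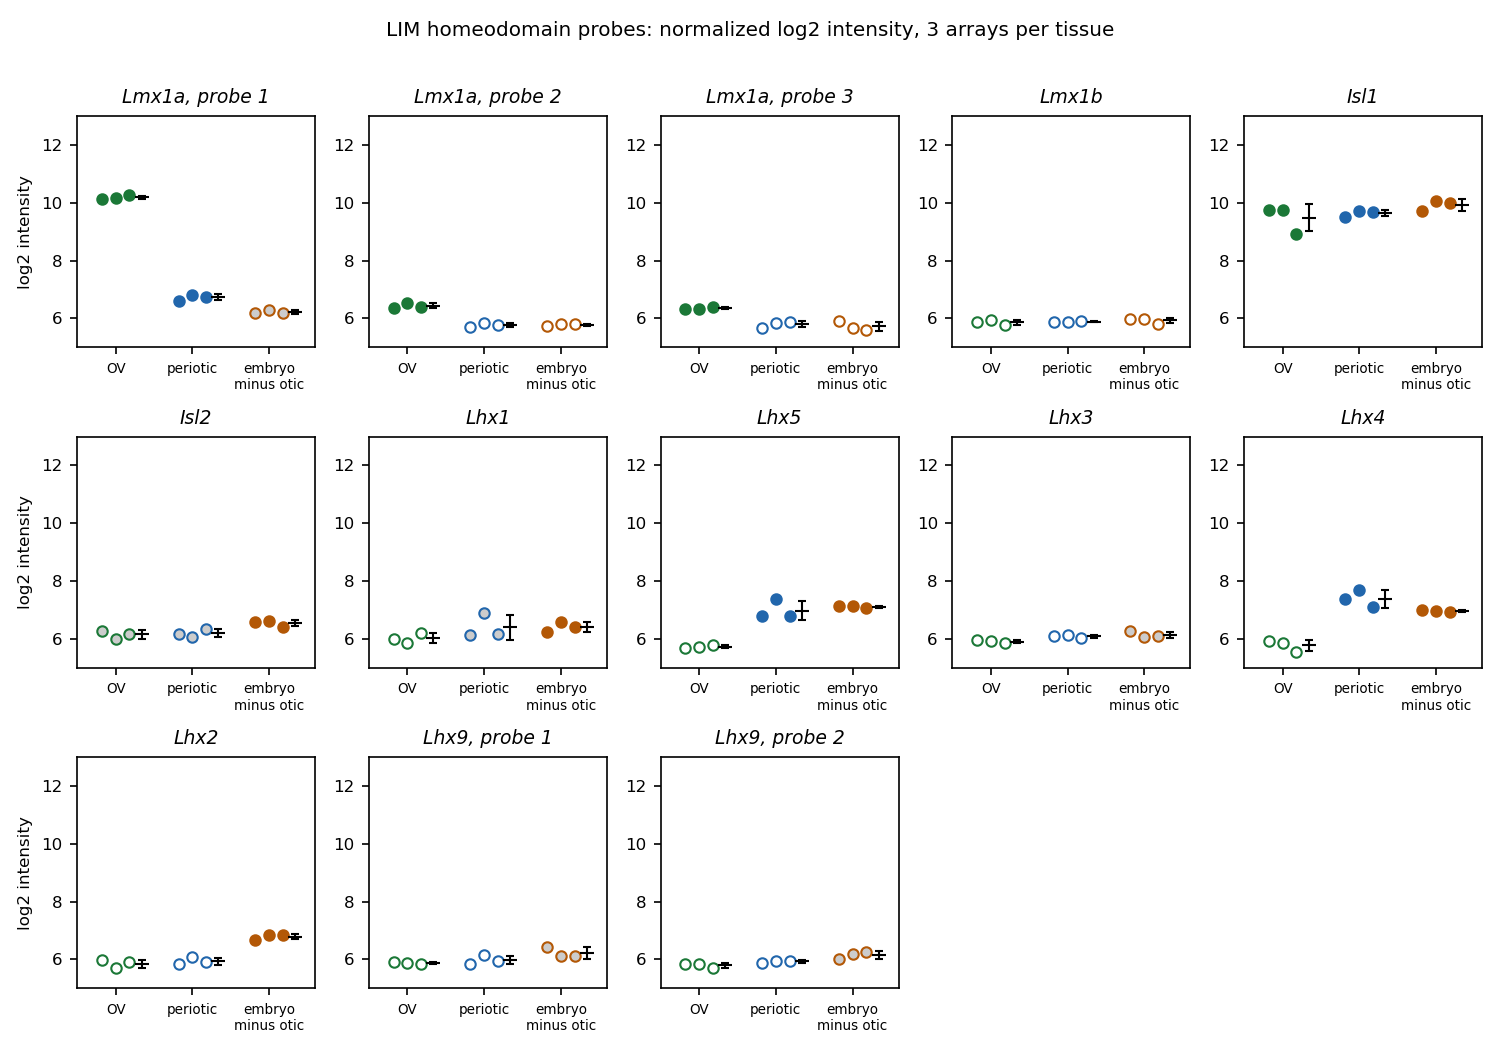
Normalized log2 intensity (y axis) of the 13 LIM homeodomain probes on each of the 3 arrays per tissue (x axis), with black bars for the mean and SD of each group. Filled points are groups above background on all arrays, grey points on some and open points on none, and *Lmx1a* probe 1 stands near 10 in OV alone.

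The relatives of *Lmx1a* did not share this pattern on these arrays. Of the 10 probes of the 9 relatives, 1, that of *Isl1*, passed the detection threshold on every OV array, 3 did so on every periotic array and 6 on every embryo-minus-otic array, and 8 passed on no OV array. At a detection p under 0.05 these counts were 1, 5, 8 and 7. Against embryo-minus-otic tissue, 0 were higher in OV by limma (0 at an unadjusted p under 0.05) where 5.89% of all probes were, and 5 were lower where 5.51% of all probes were. Against periotic tissue, 0 were higher in OV (0 unadjusted) where 5.07% of all probes were, and 2 were lower where 5.15% were. Between periotic and embryo-minus-otic tissue, 0 were higher in periotic tissue (1 unadjusted) where 2.86% of all probes were, and 1 was lower where 2.95% were.

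The median difference of the 10 probes was -0.38 log2 units for OV minus embryo-minus-otic tissue, where that of all probes was 0.0043. It was -0.14 for OV minus periotic tissue and -0.18 for periotic minus embryo-minus-otic tissue. The comparisons share arrays. Over all probes, the split of calls depended on the scaling: 1513 were higher and 1417 lower in OV than in embryo-minus-otic tissue, but 1472 and 670 after median normalization. For periotic against embryo-minus-otic tissue the split was 736 and 757, but 812 and 315 after median normalization.

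*Lmx1b*, the closest relative of *Lmx1a* and a regulator of dorsal limb pattern, was above background on no array. It measured 5.86, 5.96 and 5.78 on the OV arrays, 5.87, 5.88 and 5.90 on the periotic arrays and 5.98, 5.98 and 5.82 on the embryo-minus-otic arrays. The groups overlapped, and no fold can be given. A signal of this probe was not detectable here, which does not say that the gene was off.

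*Isl1*, which marks motor neurons, sensory neurons and heart progenitors, was the only relative detected on every OV array. It measured 9.76, 9.76 and 8.93 on the OV arrays, 9.52, 9.71 and 9.68 on the periotic arrays, with embryo-minus-otic values from 9.70 to 10.07. All arrays were above background and the groups overlapped, with OV replicate 3 the lowest array. OV minus embryo-minus-otic tissue was -0.44 (95% interval -0.81 to -0.062), which missed the threshold by limma (*q* = 0.147). It was -0.16 without OV replicate 3 and -0.23 after median normalization. OV minus periotic tissue was -0.15 (95% interval -0.52 to 0.23, limma *q* = 0.766) and became 0.13 without OV replicate 3.

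Genes of neuroblasts, some of which use *Isl1*, were mixed across the tissues. *Neurod1*, which drives neuronal differentiation of ganglion precursors, measured 8.60, 8.73 and 8.38 on the OV arrays, 6.65, 6.64 and 6.98 on the periotic arrays and 6.84, 6.99 and 6.67 on the embryo-minus-otic arrays. Of the 12 probes of the ganglion neuroblast list, 1 was higher and 3 were lower in OV than in periotic tissue. The shares of all probes were 5.07% and 5.15%. Of the 14 probes of the heart list, 8 were lower in OV than in embryo-minus-otic tissue. The part of these cells in the *Isl1* values was not tested.

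*Isl2*, the paralog of *Isl1* in motor and sensory neurons, was dim. It measured 6.29, 5.99 and 6.18 on the OV arrays, 6.18, 6.06 and 6.34 on the periotic arrays and 6.58, 6.61 and 6.42 on the embryo-minus-otic arrays. Detection held throughout a group in embryo-minus-otic tissue alone. All embryo-minus-otic arrays lay above the others. OV was lower than embryo-minus-otic tissue by limma (log2 difference -0.38, SE 0.103, *q* = 0.0251), a call lost after median normalization (*q* = 0.122), without normalization, and without OV replicate 2, OV replicate 3, embryo-minus-otic replicate 1 or embryo-minus-otic replicate 2. Periotic minus embryo-minus-otic tissue was -0.34 (limma *q* = 0.0777), which passed without periotic replicate 3 (*q* = 0.0486).

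*Lhx5*, which acts in forebrain and spinal cord interneurons, was not detected in OV and was detected in both other tissues. It measured 5.69, 5.71 and 5.78 on the OV arrays, 6.79, 7.37 and 6.78 on the periotic arrays and 7.12, 7.14 and 7.06 on the embryo-minus-otic arrays. No OV array was above background, all others were, and the OV arrays lay below all of them. OV was lower than embryo-minus-otic tissue by at least 1.88-fold (log2 difference -1.38, SE 0.128, limma *q* = 1.63e-06) and lower than periotic tissue by at least 1.71-fold (log2 difference -1.25, limma *q* = 4.56e-06). The 2 non-otic tissues differed by -0.13, periotic minus embryo-minus-otic (95% interval -0.41 to 0.14, limma *q* = 0.727).

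*Lhx1*, the paralog of *Lhx5* with roles in head formation, kidney and interneurons, gave a smaller and less certain difference. It measured 5.99, 5.87 and 6.21 on the OV arrays, 6.15, 6.90 and 6.16 on the periotic arrays and 6.25, 6.58 and 6.40 on the embryo-minus-otic arrays. The detection threshold was passed on no OV array, 2 periotic arrays and every embryo-minus-otic array, and periotic replicate 2 stood apart from the other periotic arrays. Of the 11 kidney primordium probes, 3 were higher in OV than in embryo-minus-otic tissue, those of *Gata3*, *Pax8* and *Six2*. *Gata3* and *Pax8* are also in the otic vesicle list. The 1 lower probe was that of *Wt1*, with a log2 difference of -2.36. Neither OV difference of *Lhx1* passed (limma *q* = 0.189 against embryo-minus-otic tissue and 0.226 against periotic tissue), and the former passed without periotic replicate 2 (*q* = 0.0356).

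Periotic replicate 2 was also the highest periotic array for *Lhx5* and *Lhx4*. Marker lists were not uniform in this. The interneuron list averaged 6.62, 6.76 and 6.58 on the periotic arrays and the ganglion neuroblast list 6.65, 6.72 and 6.72, with *Evx1*, an interneuron factor, at 7.30, 8.17 and 7.31. *Phox2a*, a cranial motor neuron factor, measured 7.85, 8.41 and 7.89, while *Elavl4*, a neuronal RNA-binding protein, was highest on replicate 3, at 8.32, 8.56 and 8.70 for probe 1. Their part in the *Lhx1*, *Lhx5* and *Lhx4* values was not tested.

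*Lhx4*, a factor of pituitary and motor neuron development, had the most negative fitted difference of OV from periotic tissue among the relatives. It measured 5.91, 5.87 and 5.55 on the OV arrays, 7.37, 7.70 and 7.09 on the periotic arrays and 6.99, 6.96 and 6.93 on the embryo-minus-otic arrays. No OV array was above background, and the 3 groups did not overlap. OV was lower than periotic tissue by at least 2.28-fold (log2 difference -1.61, SE 0.134, limma *q* = 4.28e-07) and lower than embryo-minus-otic tissue by at least 1.69-fold (log2 difference -1.18, limma *q* = 1.35e-05). Periotic minus embryo-minus-otic tissue was 0.43 (limma *q* = 0.0824), and it passed without periotic replicate 3 (0.57, *q* = 0.0143).

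*Lhx3*, the paralog of *Lhx4* in pituitary and motor neurons, was above background on 1 array, in embryo-minus-otic tissue. It measured 5.95, 5.91 and 5.86 on the OV arrays, 6.11, 6.13 and 6.01 on the periotic arrays and 6.26, 6.06 and 6.11 on the embryo-minus-otic arrays. The OV arrays lay below the others, but OV minus embryo-minus-otic tissue did not pass (-0.23, limma *q* = 0.107) except with neqc background correction (-0.45, *q* = 0.0421), and no fold can be given.

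Markers of the tissues that use this pair were weak. In the motor neuron list *Mnx1*, *Slc18a3*, *Chat*, *Olig2* and *Tbx20* were above background on no array, while *Nkx6-1* measured 9.53, 9.54 and 9.12 in periotic tissue and 8.07, 8.09 and 7.76 in embryo-minus-otic tissue. In the pituitary and forebrain list *Hesx1*, *Pitx1*, *Six6* and *Rax* were above background on no array. The summed intensity of the motor neuron list was 640.0 to 644.8 in OV, 1317 to 1622 in periotic tissue and 884.9 to 930.3 in embryo-minus-otic tissue, and its part in the *Lhx4* values was not tested.

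*Lhx2*, needed for eye, forebrain and limb growth, was detected in embryo-minus-otic tissue alone. It measured 5.97, 5.69 and 5.89 on the OV arrays, 5.83, 6.08 and 5.91 on the periotic arrays and 6.68, 6.86 and 6.84 on the embryo-minus-otic arrays. The embryo-minus-otic arrays lay above all others, which were all at background. OV was lower than embryo-minus-otic tissue by at least 1.51-fold (log2 difference -0.94, SE 0.100, limma *q* = 6.84e-06), and periotic tissue was lower by at least 1.53-fold (log2 difference -0.85, limma *q* = 4.49e-05).

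*Lhx9*, the paralog of *Lhx2* with roles in gonad and limb, had 2 probes near background, each above it on 1 embryo-minus-otic array. Probe 1 measured 5.92, 5.87 and 5.86 on the OV arrays, 5.85, 6.14 and 5.93 on the periotic arrays and 6.44, 6.11 and 6.11 on the embryo-minus-otic arrays. Probe 2 measured 5.84, 5.85 and 5.69 on the OV arrays, 5.89, 5.95 and 5.96 on the periotic arrays and 6.02, 6.18 and 6.27 on the embryo-minus-otic arrays. OV was lower than embryo-minus-otic tissue for probe 2 by limma (log2 difference -0.36, *q* = 0.0163) and missed the threshold for probe 1 (-0.34, *q* = 0.0549). The call of probe 2 was lost without normalization (*q* = 0.136) and without OV replicate 3, embryo-minus-otic replicate 2 or embryo-minus-otic replicate 3. Probe 1 passed with the intensity trend (*q* = 0.0379) and without periotic replicate 2 (*q* = 0.0485) or embryo-minus-otic replicate 3 (*q* = 0.0498).

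By dissection, limb tissue went with the embryo-minus-otic samples. Of the 12 limb bud probes, 4 were lower in OV than in embryo-minus-otic tissue, those of *Hoxd12*, *Hand2* and *Shh*. In periotic tissue 2 were lower, those of *Hoxd12* and *Hand2*. *Shh* probe 1 averaged 8.17 in periotic tissue and 8.26 in embryo-minus-otic tissue. *Hoxa13* probe 1 was above background on every array and was not called, and *Hoxd13*, *Hoxd11*, *Tbx4* and *Tbx5* were above background on no array. The part of limb tissue in the *Lhx2* and *Lhx9* values was not tested.

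**Figure D2:**
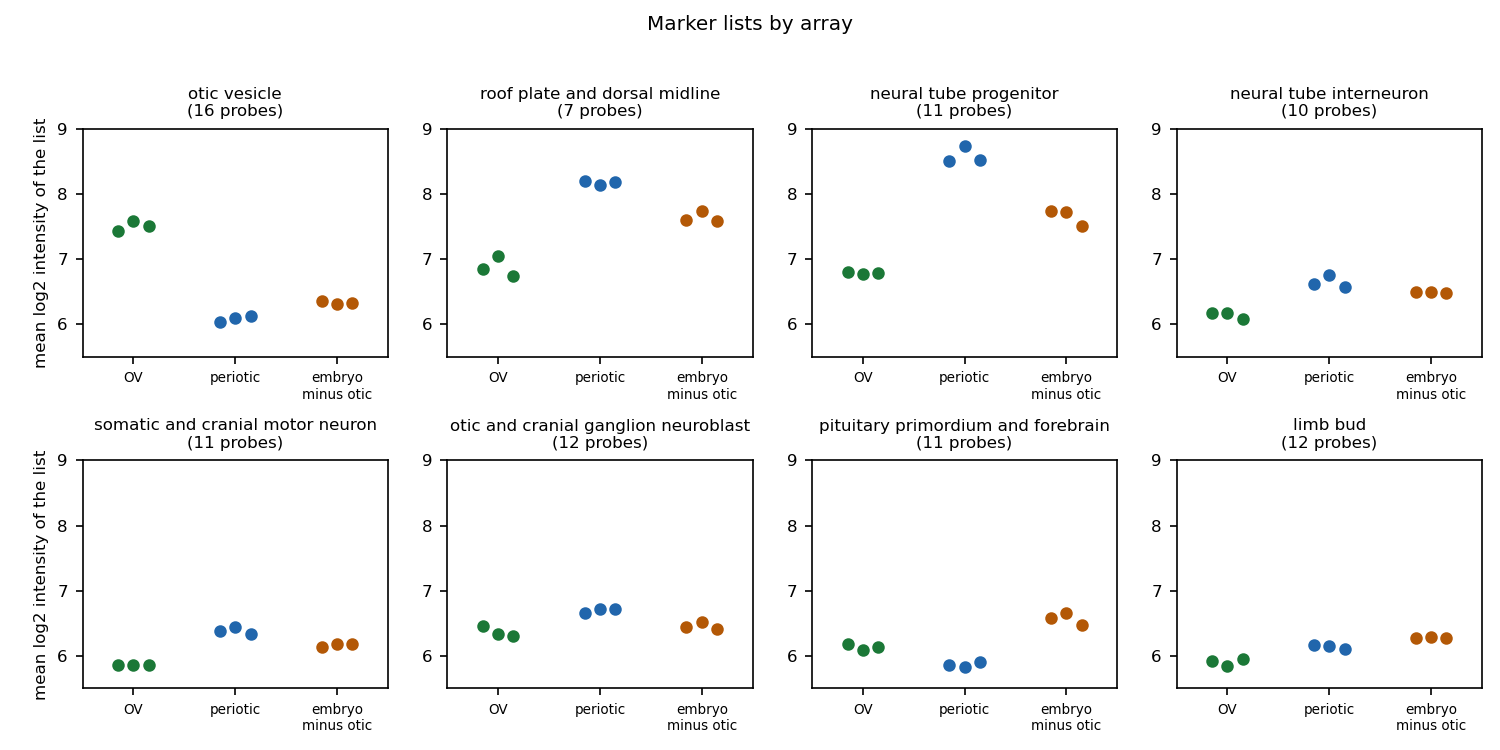
Mean normalized log2 intensity (y axis) of 8 marker lists on each of the 3 arrays per tissue (x axis), 1 point per array. The otic vesicle list was highest in OV, and the neural tube progenitor list was lowest in OV and highest in periotic tissue.

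Outside the list of relatives, *Lhx8*, a forebrain factor, measured 6.05, 6.22 and 6.08 on the OV arrays, 6.06, 6.20 and 6.12 on the periotic arrays and 6.48, 6.46 and 6.53 on the embryo-minus-otic arrays. The embryo-minus-otic arrays lay above all others, and *Lhx8* was lower in OV (log2 difference -0.37, limma *q* = 0.00802) and in periotic tissue (-0.37, limma *q* = 0.0162). The periotic call was lost without periotic replicate 1 or embryo-minus-otic replicate 3. *Lhx6*, a factor of migrating interneurons and jaw mesenchyme, was above background on no array.

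The likeness of each member to *Lmx1a* was measured as the distance from its brightest probe in the plane of the 2 OV differences, in log2 units. Among 11846 probes that each passed the detection threshold throughout at least 1 group, the nearest genes were *Fbxo2* at 0.372, *Oc90* at 0.600, *Krt23* (an older symbol on the array) at 0.696, *Spp1* at 0.939 and *Gata3* at 1.15. With neqc the distances were 0.83 for *Fbxo2*, 1.19 for *Oc90* and 1.96 for *Gata3*. *Isl1*, detected on all arrays, ranked 10310 of 11846, and *Isl2*, detected on 1 OV array, ranked 9693. Distances of probes at background in a group, among them *Krt23* in both non-otic tissues and *Oc90* in periotic tissue, rest on differences that are only bounded. The same limit holds for *Lhx1*, *Lhx2*, *Lhx4* and *Lhx5*, undetected in OV, which ranked 10727, 11196, 11714 and 11700. *Lmx1b*, *Lhx3* and *Lhx9* passed detection throughout no group and were not ranked. *Lmx1a* probes 2 and 3 themselves lay at 4.32 and 4.43 from probe 1, and *Lmx1b* at 5.32. A large distance can therefore go with a dim probe and does not by itself show an unlike pattern. The rank is a description, as *Lmx1a* was chosen on these values.

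**Figure D3:**
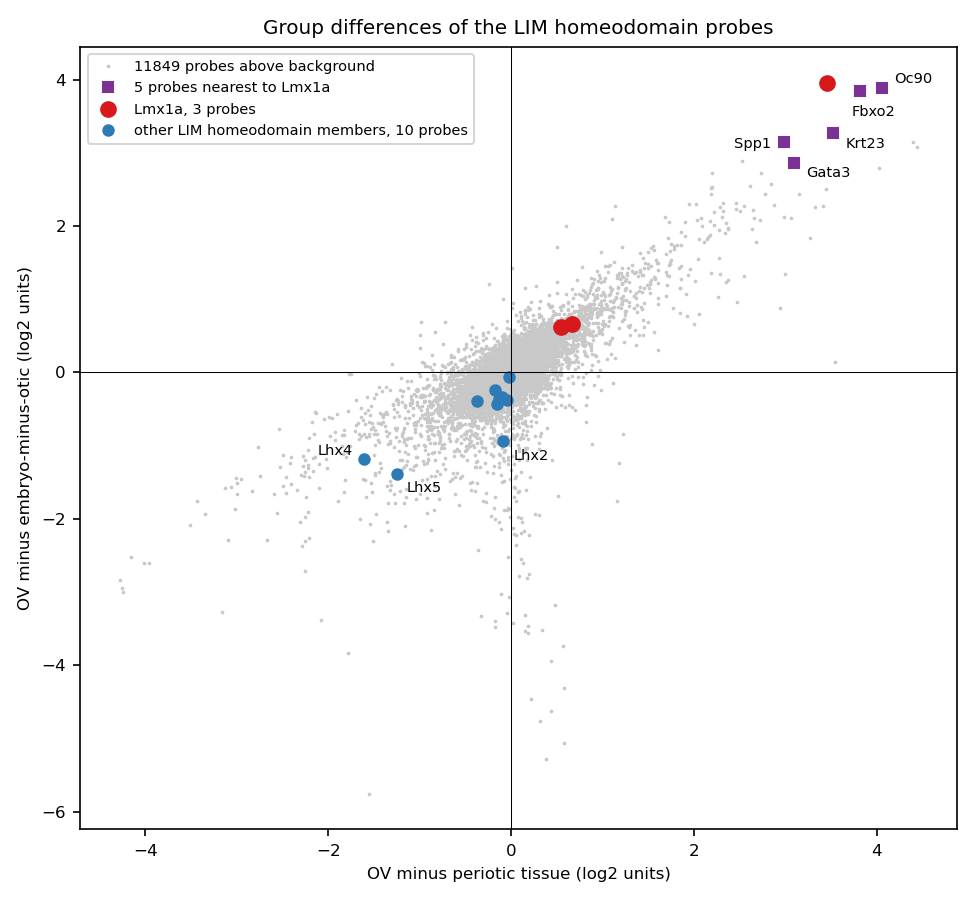
Difference of OV from embryo-minus-otic tissue (y axis) against that from periotic tissue (x axis), both in log2 units, for the 3 *Lmx1a* probes (red), the 10 probes of its relatives (blue), the 5 nearest probes (purple) and the 11849 probes above background (grey). *Lmx1a* probe 1 lies at 3.46 and 3.96. The fitted differences of the 10 relatives' probes are negative on both axes, where the medians of all probes were -3.7e-05 (x axis) and 0.0043 (y axis). Those of *Lmx1b* on both axes and of *Lhx2*, *Lhx3* and *Lhx9* on the x axis compare values at background. The x values of *Isl1* and *Isl2* turned positive on leaving out 1 array.

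Transcripts of the partners, meaning LIM cofactors and LIM-only genes, were measured by 15 probes of 10 genes. In OV against embryo-minus-otic tissue 1 was higher and 3 were lower, against periotic tissue 1 was higher and 5 were lower (1 of them, *Lmo3* probe 2, at background in both), and in periotic against embryo-minus-otic tissue 2 were higher and 1 was lower. The shares of all probes called were 5.89% and 5.51%, 5.07% and 5.15%, and 2.86% and 2.95%. The partners' median differences were -0.14, -0.055 and -0.073 log2 units.

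*Lmo4*, a LIM-only protein, was the partner higher in OV. It measured 12.50, 12.49 and 12.41 on the OV arrays, 11.62, 11.60 and 11.77 on the periotic arrays and 11.97, 12.16 and 11.80 on the embryo-minus-otic arrays, and the OV arrays lay above all others. OV was higher than periotic tissue by 0.80 log2 units (limma *q* = 3.56e-05) and than embryo-minus-otic tissue by 0.49 (limma *q* = 0.00346). The latter call was lost after median normalization (0.64, *q* = 0.0753).

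*Lmo2*, a LIM-only protein of blood and vessel development, was lowest in OV. It measured 7.88, 7.74 and 7.47 on the OV arrays, 8.88, 8.72 and 8.93 on the periotic arrays and 9.30, 9.47 and 9.10 on the embryo-minus-otic arrays. OV was lower by 1.59 log2 units than embryo-minus-otic tissue (difference -1.59, limma *q* = 1.40e-07) and its difference from periotic tissue was -1.15 (limma *q* = 5.06e-06). The red blood cell list averaged 9.09, 8.84 and 8.37 in OV and at least 9.52 on every other array, with 8 of its 10 probes lower than in embryo-minus-otic tissue and 7 lower than in periotic tissue. Its part in the *Lmo2* values was not tested.

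*Lmo3* and *Ssbp2* were higher in periotic tissue than in OV. *Lmo3* probe 1 measured 5.77, 5.76 and 6.12 on the OV arrays, 6.77, 6.83 and 6.81 on the periotic arrays and 6.49, 6.25 and 6.42 on the embryo-minus-otic arrays, and OV was lower than periotic tissue by at least 1.52-fold (limma *q* = 1.65e-05). *Ssbp2*, a cofactor that stabilizes LIM domain-binding complexes, measured 8.28, 8.15 and 8.23 on the OV arrays, 8.85, 9.08 and 8.63 on the periotic arrays and 8.22, 8.36 and 8.36 on the embryo-minus-otic arrays for probe 1. Its OV minus periotic difference was -0.63 (limma *q* = 7.32e-04), and probe 2 gave -0.48 (limma *q* = 0.00136). *Ssbp4*, of the same family, was lower in OV than in embryo-minus-otic tissue (-0.50, limma *q* = 0.0241), but the groups overlapped. That call was lost with neqc (*q* = 0.0659), after median normalization (*q* = 0.126), without normalization (*q* = 0.107) and without OV replicate 2, embryo-minus-otic replicate 1 or embryo-minus-otic replicate 3.

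*Ldb1*, the common cofactor of LIM homeodomain proteins, was above background on all 9 arrays and measured 11.60 to 11.79 in OV, 11.78 to 11.90 in periotic tissue and 11.88 to 12.04 in embryo-minus-otic tissue. OV minus embryo-minus-otic tissue was -0.26 (limma *q* = 0.0782). *Lmo1* was above background on no array.

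**Figure D4:**
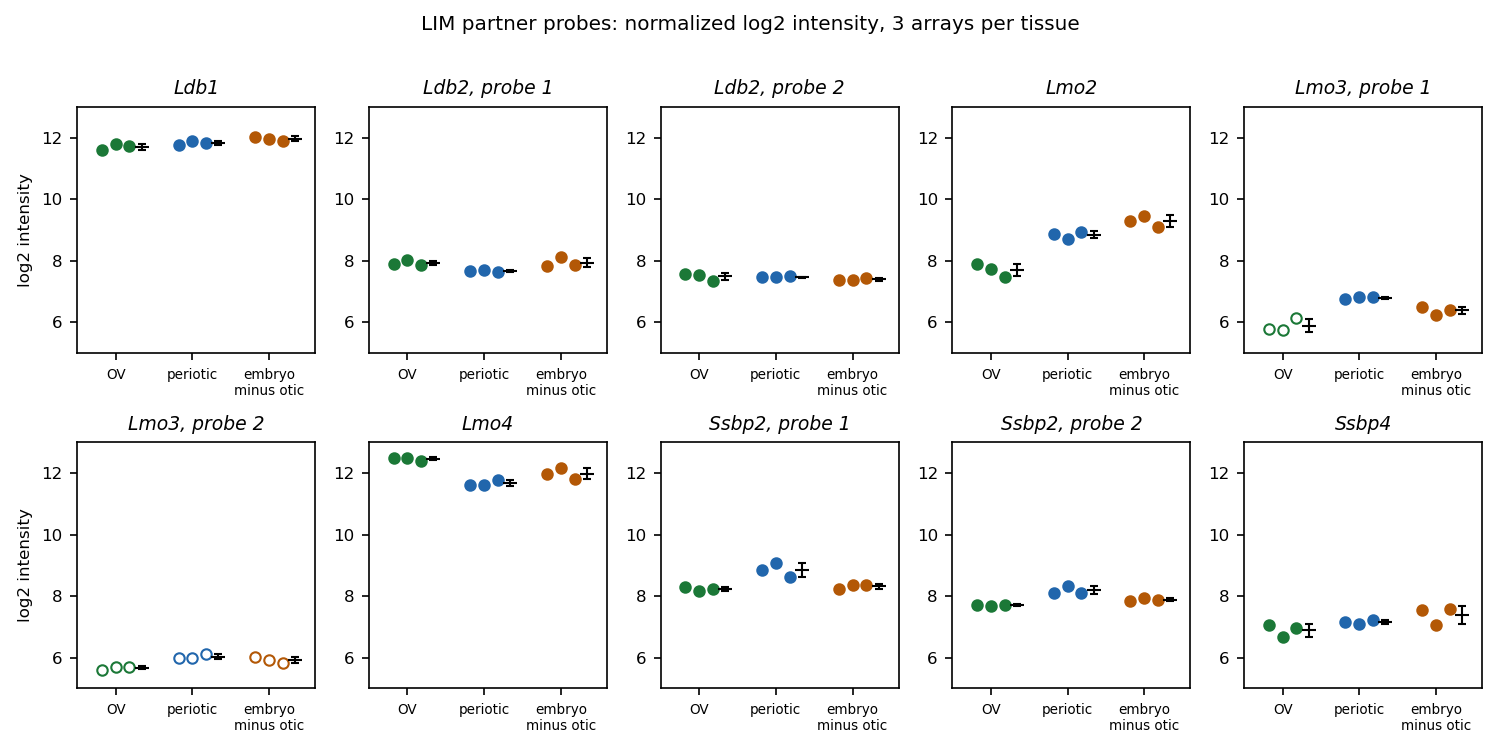
Normalized log2 intensity (y axis) of 10 probes of LIM cofactors and LIM-only genes on each of the 3 arrays per tissue (x axis), with black bars for the mean and SD. Filled points are groups above background on all arrays and open points on none, and *Lmo4* stands highest in OV while *Lmo2* stands lowest there.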

How the data were processed

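RNA from 9 tissue pools, 3 per group, was hybridized to one-colour arrays. The authors deposited an average signal intensity and a detection p-value for each probe and array, without normalization between arrays. Background subtraction is not given in the sources used here. Groups follow the tissue in the labels. Intensities were log2 transformed (floor 1) and quantile normalized, and 1 linear model of the 3 groups was fitted to all 25697 probes with limma 3.58.1 in R 4.3.3. Probes were not averaged by gene. Of 22 LIM symbols, 21 matched RefSeq by symbol and *Rnf12* matched as *Rlim*. The members, partner list and marker lists were chosen with earlier results of these data known. Named genes were all members, the partners called in at least 1 comparison, the 5 probes nearest to *Lmx1a* and the brightest or defining markers, and *Ldb1*, *Lmo1* and some markers were named after their values were seen. The steps were tested on simulated data. Alternatives were neqc (offset 16), median or no normalization, a filter on dim probes, only the groups compared, an intensity trend, a replicate block, a detection p under 0.05 and leaving out each array. Median normalization was first run as a rescaling of log2 values. It was replaced by a shift to a common median after those results had been seen, and both are reported. Slide and bead numbers were not analysed here. The number of arrays limits the precision.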

Additional observations from a re-analysis of the deposited data

How the results depend on the processing

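The OV differences of *Lmx1a* kept their direction under every alternative run. The lower calls of *Lhx5* and *Lhx4* in both OV comparisons and of *Lhx2* against embryo-minus-otic tissue held in all of them. Without normalization the relatives called lower in OV than in embryo-minus-otic tissue fell to 3, and leaving out 1 array gave 3 to 7. Periotic calls against embryo-minus-otic tissue then ranged from 0 to 1 higher and from 1 to 2 lower.

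The replicate numbers were not taken as pairs: deviations of same-numbered arrays correlated between 0.0080 and 0.18, although 9 of 9 arrays correlated best with their own number. With the replicate block the relatives higher in periotic than in embryo-minus-otic tissue numbered 1, *Lhx4* (0.43, limma *q* = 0.0237), and no other member call changed.

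Among the partners, the probe higher in OV than in embryo-minus-otic tissue was lost (0) after median normalization and without normalization. Without normalization 3 were lower in OV than in periotic tissue and 1 was higher in periotic than in embryo-minus-otic tissue. The probe lower in periotic tissue was lost (0) with neqc, median, no normalization and the intensity trend. Leaving out 1 array gave 1 to 2 higher and 0 to 2 lower there. For *Lhx6* and *Lhx8*, the OV call was lost (0) without normalization and the periotic call was lost (0) after median or no normalization, with 0 to 1 on leaving out 1 array.

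With neqc, *Lmx1a* probe 1 gave 5.0, 4.10 and 0.91 for OV minus embryo-minus-otic, OV minus periotic and periotic minus embryo-minus-otic tissue. Probe 2 gave 1.20 for both OV differences, and probe 3 gave 1.05 and 0.998. Without normalization, OV minus embryo-minus-otic tissue was 3.86 for probe 1 and 0.53 for probe 2.

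Median normalization by rescaling, a form superseded after seeing the data, gave 0 partners higher in OV than in embryo-minus-otic tissue, 0 higher and 3 lower than in periotic tissue, 0 lower in periotic than in embryo-minus-otic tissue and 0 for *Lhx8* there. It also cost *Lmo4* its call against periotic tissue (*q* = 0.0935), which the shift kept. Signs turned under it for periotic minus embryo-minus-otic tissue in *Isl1* (0.036), *Lhx1* (0.012) and *Lhx5* (0.0028), and for OV minus embryo-minus-otic tissue in *Ssbp2* (0.12 and 0.0077). The shift turned *Lhx1* (0.012) and *Ssbp2* probe 1 (0.080).

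Leaving out 1 array turned signs of differences that had not passed. OV minus periotic tissue ranged from -0.29 to 0.13 for *Isl1*, from -0.11 to 0.038 for *Isl2* and from -0.058 to 0.030 for *Lhx8*. Periotic minus embryo-minus-otic tissue ranged from -0.26 to 0.12 for *Lhx1* and from -0.098 to 0.00071 for *Lhx3*. The causes were not tested.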
